A study of Bos taurus with 9 samples.

Results

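Collagen chain genes were followed in bovine endometrial epithelial cells (BEEC) that had shared a culture dish with embryos. Every row of the deposited gene table whose symbol has the form COL, a number, A and a number was taken as a member. This gave 40 of 24596 genes, and all 40 were kept whether or not reads were found. Of these, 31 had at least 1 exon read in some library, 24 had reads in every library, and 9 had none in any library.

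Collagens are extracellular proteins built from chains that wind around each other into a rope-like helix. Fibrillar collagens such as types I, III and V form the cables of connective tissue, type IV forms the sheet of the basement membrane under epithelium, type VI forms beaded filaments, and the fibril-associated types sit on the surface of fibrils. In the uterus the stroma is the main store of fibrillar collagen, the basement membrane separates it from the epithelium, and both are remodelled around implantation.

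The BEEC were primary cells scraped from 3 bovine uteri at the early luteal stage. Morulae (compacting embryos) in groups of 5 were set on the cell layers 4 days after fertilisation and the cells were harvested at day 8, so all groups had contact with embryos. The groups differ in how the embryos had been kept before, named HIGHGLUC, LOWAA and control in the labels, which give no concentrations. HIGHGLUC held replicates 6, 10 and 14, LOWAA held 8, 12 and 15, and control held 5, 9 and 13. A group without embryos is not among the libraries analysed here. Each library came from cells of 3 pooled wells, and nothing ties a library to a separate uterus or culture, so p-values measure only the spread between these libraries. In number order the libraries form runs with 1 of each group: replicates 5, 6 and 8 (run 1), 9, 10 and 12 (run 2) and 13, 14 and 15 (run 3). What these numbers stand for is not stated in the labels.

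The shallowest library, control replicate 5, held 2887097 exon reads and the deepest, control replicate 9, held 13969325. Levels below are CPM, the exon reads of a gene per 1000000 exon reads of the library, and a count of 0 allows up to 0.215 to 1.04 CPM depending on the library. The cells carried epithelial and stromal transcripts side by side. A list of 12 epithelial markers summed to 7845 to 8934 CPM. Most of this came from the keratins KRT8, KRT18 and KRT19, at 4444, 1994 and 1593 CPM on average. CLDN7 and GRHL2 had 0 reads, and CLDN3, EPCAM, CLDN4 and KRT5 averaged 0.917, 0.153, 0.0814 and 0.0385 CPM. The 11 stromal fibroblast markers in the table summed to 2944 to 3449.6 CPM with none at 0. DCN, VIM and LUM led them with 2103, 542 and 333 CPM. THY1, PDGFRB, S100A4, HOXA11, TWIST2 and TWIST1 averaged 6.77, 6.41, 5.56, 2.75, 1.65 and 1.25 CPM. Smooth muscle and pericyte markers summed to 328 to 562 CPM. TAGLN, ACTA2, CNN1, MCAM and CSPG4 averaged 298, 84.2, 49.5, 25.7 and 8.89 CPM, and RGS5, DES and MYH11 1.06, 0.964 and 0.0444 CPM. Endothelial markers summed to at most 5.20 CPM (CDH5, KDR and CLDN5 at 0) and leukocyte markers to at most 17.3 CPM (PTPRC, CD3E, CD79A and NKG7 at 0). Of 8 embryo markers 5 were in the table, and they summed to at most 1.04 CPM (SOX2 and ELF5 at 0). The embryo markers NANOG, CDX2 and POU5F1 were not in the table and could not be counted. In a bulk sample fewer cells of a type and less RNA per cell cannot be told apart.

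Collagen chains took 1.17% to 1.46% of all exon reads. The lowest share was in control replicate 5 (1.17%, 95% Wilson interval 1.15% to 1.18%) and the highest in LOWAA replicate 12 (1.46%, 1.45% to 1.47%). These intervals and the limits for a count of 0 cover counting error only. The share averaged 1.29% ± 0.109 in HIGHGLUC, 1.31% ± 0.131 in LOWAA and 1.32% ± 0.141 in control libraries (SD, n = 3 each), so the group means lay within the spread of each group. By run the share averaged 1.18% ± 0.0220 in run 1, 1.40% ± 0.0530 in run 2 and 1.35% ± 0.0852 in run 3, and the 3 libraries of run 1 were below all others. No read of any member matched a second place in the genome, so total and unique exon reads of a chain were equal. With unique exon reads as the base the share averaged 1.36% in HIGHGLUC, 1.37% in LOWAA and 1.38% in control libraries.

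Fibrillar chains made up 77.6% of all collagen reads, the basement membrane chains of type IV 7.66%, type VI 4.83%, the short-chain type VIII 4.10%, the fibril-associated chains 3.13% and the endostatin-bearing types XV and XVIII 2.67%. Of the 40 chains, 15 averaged at least 100 CPM over the 9 libraries, 17 at least 10 CPM and 7 more between 1 and 10 CPM. A group of 7 chains had reads but averaged under 1 CPM.

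**Figure D1:**
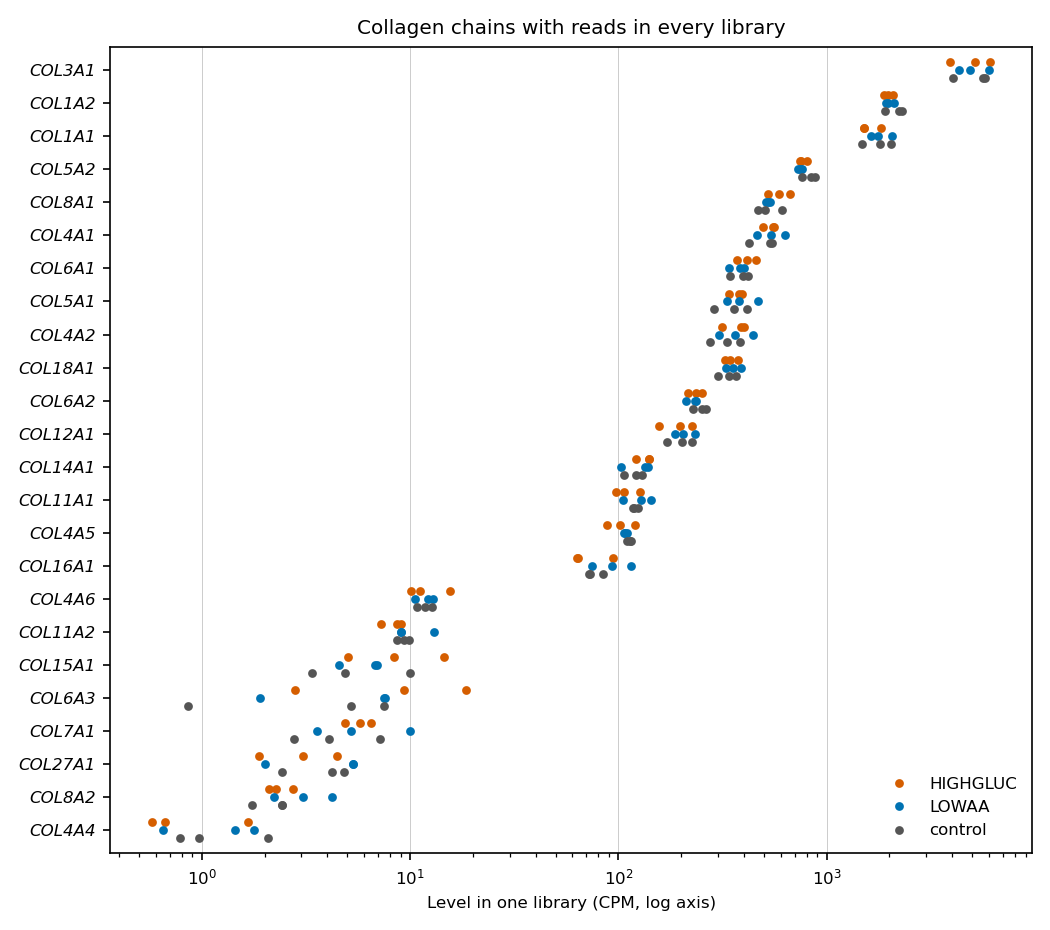
Level of the 24 collagen chains with reads in every library, as CPM on a log axis, with 1 point per library and the HIGHGLUC, LOWAA and control libraries of each chain in rows from top to bottom. COL3A1 lies between 3912 and 6081 CPM and COL4A4, at the bottom, near 1 CPM, and the points of the groups overlap for nearly every chain.

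COL3A1, the chain of type III collagen that is typical of soft, stretchable tissue, had the highest level of all members, also per kilobase of exon, where it averaged 1118 CPM, COL1A2 441, COL1A1 366 and COL5A2 173 CPM (COL3A1 lies on chromosome 2, chr2:7318226-7356937 in the table's UMD3.1 coordinates). It had 3912, 6081 and 5148 CPM in HIGHGLUC replicates 6, 10 and 14, 4327, 6034 and 4871 CPM in LOWAA replicates 8, 12 and 15, and 4036, 5604 and 5748 CPM in control replicates 5, 9 and 13. The lowest library of each group was the one of run 1. COL3A1 alone gave 33.4% to 44.0% of the collagen reads of a library. On unique exon reads it averaged 5295 ± 1149 CPM in HIGHGLUC, 5312 ± 888 in LOWAA and 5368 ± 957 in control libraries (SD, n = 3 each).

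The chains of type I collagen, the main cable-forming collagen of most tissues, came next, and values are in the same library order throughout. COL1A2 had 2083, 1881 and 1964 CPM in HIGHGLUC, 2109, 1964 and 1930.0 CPM in LOWAA, and 2231, 1895 and 2299 CPM in control libraries. COL1A1 had 1513, 1516 and 1829.6 CPM in HIGHGLUC, 1635, 2054 and 1756 CPM in LOWAA, and 1474, 1797 and 2026 CPM in control libraries. Both spread little, with a coefficient of variation over the 9 libraries of 7.36% for COL1A2 and 12.5% for COL1A1, against 16.6% for COL3A1.

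Type V collagen limits the thickness of type I fibrils. Its chain COL5A2 had 756, 743 and 804 CPM in HIGHGLUC, 746, 729 and 757 CPM in LOWAA, and 758, 841 and 879 CPM in control libraries. Its partner COL5A1 had 341, 393 and 379 CPM in HIGHGLUC, 334, 469.7 and 377 CPM in LOWAA, and 287, 357 and 416 CPM in control libraries. The 3 LOWAA libraries were below the 3 control libraries for COL5A2, by a narrow margin at the nearest pair, and the groups overlapped for COL5A1. COL5A3, the third chain of the type, had 2 reads in all libraries together.

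Type XI collagen is a close relative of type V and best known from cartilage. COL11A1 had 127, 106 and 96.9 CPM in HIGHGLUC, 143, 128 and 105 CPM in LOWAA, and 125, 118 and 118 CPM in control libraries, while COL11A2 averaged 9.33 CPM and COL27A1, a fibrillar chain of type XXVII, 3.73 CPM. COL2A1, the main cartilage collagen, had no reads.

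Type IV collagen, the mesh of the basement membrane, was led by its usual pair of chains. COL4A1 had 492, 549.8 and 557 CPM in HIGHGLUC, 463, 633 and 538 CPM in LOWAA, and 423, 546 and 536 CPM in control libraries. COL4A2 had 315, 402 and 389 CPM in HIGHGLUC, 305, 441 and 364 CPM in LOWAA, and 274, 333 and 385 CPM in control libraries. In every group the library of run 1 was the lowest for both chains. The other 4 type IV chains form the networks of more specialised membranes, such as that of the kidney filter. COL4A5 averaged 108 CPM, COL4A6 11.98 CPM and COL4A4 1.18 CPM, and COL4A3 averaged 0.349 CPM with reads in 7 of 9 libraries.

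COL18A1, which encodes the precursor of endostatin and belongs to basement membranes, had 374, 345 and 326 CPM in HIGHGLUC, 386, 354 and 329 CPM in LOWAA, and 367, 341 and 301 CPM in control libraries. Its relative COL15A1 had 14.5, 5.06 and 8.37 CPM in HIGHGLUC, 6.92, 4.57 and 6.81 CPM in LOWAA, and 4.85, 3.36 and 9.97 CPM in control libraries. COL18A1 was highest in the run 1 library and lowest in the run 3 library of every group, whereas COL15A1 was lowest in the run 2 library of every group. COL7A1, the anchoring fibril that pins epithelium to stroma, averaged 5.55 CPM.

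COL8A1 encodes a short-chain collagen known from vessel walls and other matrices. It had 668, 591 and 524 CPM in HIGHGLUC, 534, 521 and 511 CPM in LOWAA, and 611, 504 and 467 CPM in control libraries, and in each group the run 1 library was the highest and the run 3 library the lowest. Its partner COL8A2 averaged 2.58 CPM.

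Of type VI collagen, the beaded filament near basement membranes, the first pair of chains was abundant and the third scarce. COL6A1 had 414, 369 and 455 CPM in HIGHGLUC, 340.4, 381 and 402 CPM in LOWAA, and 344, 395 and 417 CPM in control libraries. COL6A2 had 237, 216 and 252 CPM in HIGHGLUC, 211, 236 and 234 CPM in LOWAA, and 228, 251 and 265 CPM in control libraries. COL6A3 (chromosome 3) had 18.5, 2.79 and 9.38 CPM in HIGHGLUC, 7.50, 1.90 and 7.57 CPM in LOWAA, and 5.20, 0.859 and 7.45 CPM in control libraries.

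COL6A3 had the highest coefficient of variation of the 24 chains, 77.7% over the 9 libraries. Its reads numbered 167, 21 and 65 in HIGHGLUC, 78, 15 and 70 in LOWAA, and 15, 12 and 77 in control libraries. In each group the run 2 library was the lowest, and HIGHGLUC replicate 6 was the highest library of all.

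Fibril-associated collagens link fibrils to their surroundings. COL12A1 had 157, 225 and 197 CPM in HIGHGLUC, 186, 234 and 205 CPM in LOWAA, and 172, 226 and 202 CPM in control libraries. COL14A1 had 121, 140.1 and 140.0 CPM in HIGHGLUC, 103, 135 and 139 CPM in LOWAA, and 107, 130.4 and 122 CPM in control libraries. Both were lowest in run 1 in every group. COL16A1 had 63.3, 94.2 and 63.95 CPM in HIGHGLUC, 93.6, 116 and 74.6 CPM in LOWAA, and 73.1, 84.6 and 72.02 CPM in control libraries. For COL16A1 the LOWAA library was above the HIGHGLUC and the control library of its run in all 3 runs, and the run 2 library was the highest of each group.

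Chains with no exon reads were COL2A1, COL6A6, COL9A1, COL10A1, COL13A1, COL22A1, COL23A1, COL25A1 and COL28A1. They include collagens best known from cartilage (COL2A1, COL9A1 and COL10A1) and membrane-spanning collagens (COL13A1, COL23A1 and COL25A1). All have an annotated exon length above 0 in the table. COL10A1 overlaps NT5DC1, which had 455 reads, and how reads in the overlap were assigned was not tested. Between 1 and 4 reads in total were found for COL5A3, COL9A3, COL20A1 and COL26A1. COL17A1, the collagen of epithelial hemidesmosomes, had 35 reads, COL4A3 had 29 and COL9A2 had 24. COL6A5, COL19A1, COL21A1 and COL24A1 were not analysed here.

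Partner chains of one collagen protein were compared per kilobase of exon, and each library gives 1 ratio. COL1A1 stood to COL1A2 at 0.826 on average (range 0.645 to 1.02). In the type I protein the COL1A1 chain outnumbers the COL1A2 chain. COL4A1 stood to COL4A2 at 1.27 (1.17 to 1.41), the narrowest of 10 ratios except that of COL6A1 to COL6A2 at 1.73 (1.59 to 1.90). COL6A1 stood to COL6A3 at 195 (55.4 to 1139) and COL8A1 to COL8A2 at 90.2 (50.2 to 131), so within these types one partner was scarce. COL4A1 and COL4A2 lie next to each other on chromosome 12, COL6A1 and COL6A2 on chromosome 1, and COL5A2 and COL3A1 on chromosome 2, with no other table gene between the members of a pair. COL5A2 stood to its neighbour COL3A1 at 0.157 (0.122 to 0.195), so neighbours could differ widely in level.

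**Figure D2:**
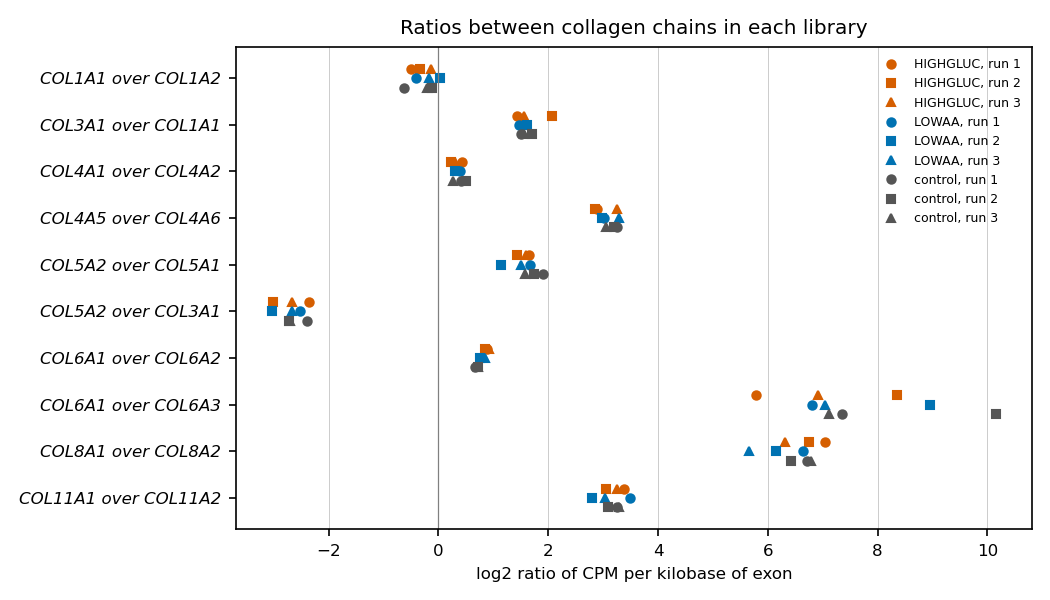
log2 ratio of CPM per kilobase of exon between collagen chains in each library, coloured by group (HIGHGLUC, LOWAA and control from top to bottom within a pair) with the marker showing the library-number run. The ratio of COL6A1 to COL6A3 spreads from 5.79 to 10.15 with the 3 run 2 libraries on the right, while COL4A1 to COL4A2 stays between 0.23 and 0.50.

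The ratio of COL6A1 to COL6A2 was the only one of the 10 whose groups did not overlap, and it was singled out after its values were seen. It was 1.84, 1.80 and 1.90 in HIGHGLUC, 1.70, 1.69 and 1.81 in LOWAA, and 1.59, 1.65 and 1.66 in control libraries. Both HIGHGLUC and LOWAA libraries were above all control libraries, which makes 10.0% of the 10 ratios higher and 0.0% lower in each of these comparisons, and HIGHGLUC overlapped LOWAA. The log2 ratio averaged 0.88 ± 0.04 in HIGHGLUC, 0.79 ± 0.05 in LOWAA and 0.71 ± 0.03 in control libraries (SD, n = 3 each). An exact two-sided permutation test gave p = 0.1 for both treated groups against control, the smallest value that 3 libraries against 3 can give, and 0.857 after Benjamini-Hochberg adjustment over the 30 comparisons of ratios. Both comparisons share the control libraries.

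The first comparison asked whether BEEC carried other collagen transcripts after contact with HIGHGLUC embryos than with control embryos. None of the 24 tested chains passed an adjusted p of 0.05 in edgeR's quasi-likelihood test, where 0.0% of the 11839 genes tested did, and none had an unadjusted p under 0.05 (2.98% of all genes did). This fit had the group as its only term, so its SEs and intervals include the spread between runs. With the library-number run as a term 3 chains (12.5%) had an unadjusted p under 0.05, beside 6.66% of all genes, and none passed after adjustment. DESeq2 and limma-voom called none of the chains either. Log2 fold changes were positive for 12 chains and negative for 12, with a median of 0.02 beside 0.00 over all genes. COL8A1 averaged 594 ± 71.6 CPM in HIGHGLUC and 527 ± 74.8 CPM in control libraries (SD, n = 3 each), a log2 fold change of 0.18 ± 0.12 (SE). COL14A1 averaged 134 ± 10.7 CPM in HIGHGLUC and 119.7 ± 12.03 CPM in control libraries (0.16 ± 0.11). COL3A1 averaged 5047 ± 1088 CPM in HIGHGLUC and 5129 ± 950.0 CPM in control libraries (-0.02 ± 0.17).

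The widest estimate was that of COL6A3, with 10.2 ± 7.88 CPM in HIGHGLUC and 4.50 ± 3.35 CPM in control libraries, a log2 fold change of 1.29 ± 1.00 with a 95% interval of -1.11 to 3.69. Its value was 0.49 without HIGHGLUC replicate 6, 0.65 without control replicate 9 and 2.33 without control replicate 13. With the library-number run as a term it was 1.13 ± 0.27 over all libraries, which did not pass after adjustment. Within runs the HIGHGLUC library was above its control library for COL6A3 by 1.83, 1.70 and 0.33 in runs 1, 2 and 3 on the log2 scale. COL15A1 followed at 0.62 ± 0.49 and differed in sign between runs (1.58, 0.59 and -0.25). It was 0.11 without HIGHGLUC replicate 6, 0.24 without control replicate 9 and 1.30 without control replicate 13. For 17 of the 24 chains the 95% interval lay within -0.5 and 0.5, and the other 7 averaged under 10 CPM. No chain had groups that did not overlap, against 3.65% of all genes higher and 3.58% lower. The same direction in all 3 runs was found for 6 chains higher and 6 lower (25.0% each), beside 13% and 13.7% of all genes.

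**Figure D3:**
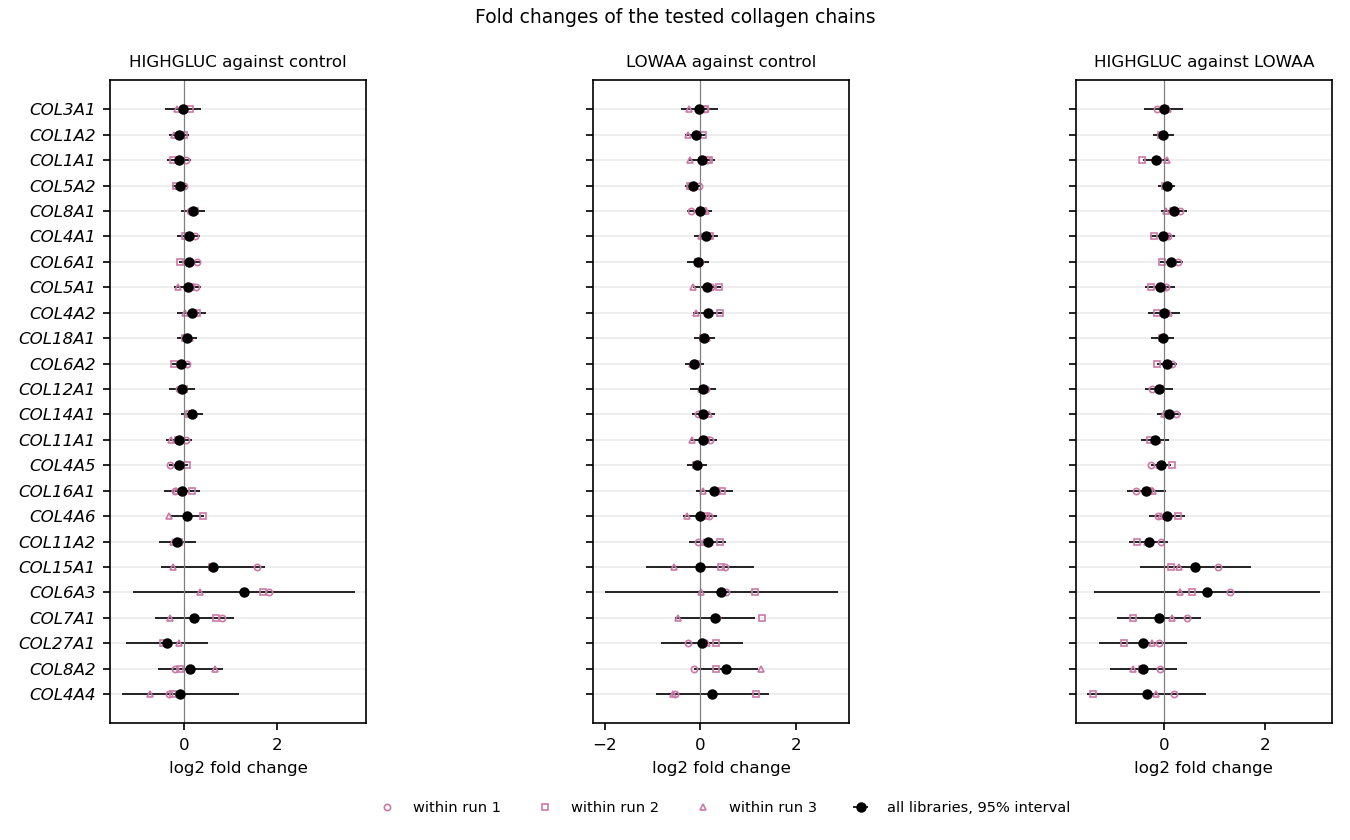
log2 fold change of the 24 tested collagen chains in each comparison, ordered by level. Black points with bars are estimates over all libraries with 95% intervals, open symbols are the differences within each library-number run, and every interval includes 0, with the widest bars for COL6A3.

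The second comparison set LOWAA against control. Again 0 of 24 chains passed the adjusted threshold, as did 0.0% of all genes, and none had an unadjusted p under 0.05 (4.0% of all genes did). With the library-number run as a term 2 chains (8.33%) had an unadjusted p under 0.05, beside 8.27% of all genes, and none passed after adjustment. Fold changes were positive for 15 chains and negative for 9, with a median log2 of 0.06 beside 0.00 over all genes. COL5A2 was the only chain whose groups did not overlap, with 744 ± 14.3 CPM in LOWAA and 826 ± 61.6 CPM in control libraries (SD, n = 3 each). Its log2 fold change was -0.15 ± 0.08, and it was lower in all 3 runs (-0.02, -0.21 and -0.21). One of 24 chains is 4.17%, beside 5.08% of all genes that were lower without overlap and 4.35% higher. COL16A1 averaged 94.6 ± 20.5 CPM in LOWAA and 76.6 ± 6.99 CPM in control libraries, a log2 fold change of 0.30 ± 0.17, and was higher in all 3 runs (0.36, 0.45 and 0.05). COL8A2, at 3.16 ± 1.01 CPM in LOWAA and 2.20 ± 0.397 CPM in control libraries, had the highest estimate (0.54 ± 0.31), with the sign differing between runs. Its values come from a chain of 200 reads in all. In 16 chains the 95% interval lay within -0.5 and 0.5. Over all 3 runs 5 chains were always higher and 4 always lower (20.8% and 16.7%), beside 16.2% and 15.8% of all genes.

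The third comparison set HIGHGLUC against LOWAA. The adjusted threshold was passed by 0 of 24 chains and by 0.0% of all genes, and an unadjusted p under 0.05 by 0 chains and 3.18% of all genes. With the library-number run as a term 5 chains (20.8%) had an unadjusted p under 0.05, beside 8.08% of all genes, and none passed after adjustment. Fold changes were positive for 9 chains and negative for 15, with a median log2 of -0.03 beside 0.00 over all genes. COL16A1 averaged 73.8 ± 17.7 CPM in HIGHGLUC and 94.6 ± 20.5 CPM in LOWAA libraries, a log2 fold change of -0.35 ± 0.17 that was negative in all 3 runs (-0.56, -0.29 and -0.22). COL11A1 averaged 110.1 ± 15.6 CPM in HIGHGLUC and 125 ± 18.9 CPM in LOWAA libraries (-0.18 ± 0.13) and was also lower in all 3 runs. COL8A1 averaged 594 ± 71.6 CPM in HIGHGLUC and 522 ± 11.6 CPM in LOWAA libraries (0.19 ± 0.12). No chain had groups without overlap, against 4.33% of all genes higher and 3.77% lower. In the same direction in all 3 runs were 5 chains higher and 7 lower (20.8% and 29.2%, beside 13.7% and 14.8% of all genes).

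In the authors' deposited table no collagen chain had an FDR below 0.05 in any of the 3 comparisons, and the FDR was 1 for all 40. Over all genes of that table the FDR was below 0.05 for 0.0447% in HIGHGLUC against control, 0.313% in LOWAA against control and 0.179% in LOWAA against HIGHGLUC, the direction used in the authors' deposited table. The smallest p of that table among chains with at least 1 CPM was 0.0579 for COL5A2 in LOWAA against control, with a deposited fold change of -1.11.

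In 22 of the 24 collagen chains more of the variation lay between library-number runs than between embryo groups. A test over the 3 runs with the group kept in the fit, chosen after seeing the data, called 12 of 24 chains (50.0%) at an adjusted p of 0.05 with edgeR's quasi-likelihood test, where 10.2% of all genes were called. Among genes of at least 10 CPM 9 of 17 chains (52.9%) and 11.3% of all genes were called. With unique exon reads, which are the same counts for the chains, 13 of 24 chains and 12.2% of all genes passed. Between pairs of runs 11 chains (45.8%) differed for run 1 against run 2, beside 11% of all genes, with 3 higher and 8 lower in run 1. For run 3 against run 2 it was 2 chains (8.33%, beside 2.08% of all genes), and for run 1 against run 3 it was 6 (25.0%, beside 4.02%). The count for the chains was 7 without HIGHGLUC replicate 6, HIGHGLUC replicate 14, LOWAA replicate 12 or control replicate 5, and 5 without LOWAA replicate 8. COL3A1 and COL6A3 passed in each of the 9 fits with 1 library left out, and COL12A1, COL16A1 and COL27A1 in 8 of them.

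COL3A1 averaged 4091 ± 213 CPM in run 1, 5906 ± 263 in run 2 and 5256 ± 448 in run 3 (SD, n = 3 each), and run 1 minus run 2 was -0.48 ± 0.07 on the log2 scale (adjusted p = 0.000457 over the 3 runs). COL12A1 had the same order, with 172 ± 14.4, 229 ± 4.72 and 201 ± 4.14 CPM in runs 1, 2 and 3, and its 3 runs did not overlap. The type IV pair was also lowest in run 1, with 459 ± 34.8, 576 ± 49.2 and 544 ± 11.6 CPM for COL4A1 and 298 ± 21.6, 392 ± 54.98 and 379 ± 13.5 CPM for COL4A2. In COL14A1 the run means were 110.5 ± 9.67, 135 ± 4.87 and 134 ± 10.3 CPM. In all, 14 of the 24 chains had their lowest mean in run 1, and 6 of these were called between runs. The share of all genes with their lowest mean in run 1 was not computed.

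Other chains had other orders of the runs, and some of them were highest in run 1. COL18A1 averaged 376 ± 9.72 CPM in run 1, 347 ± 6.72 in run 2 and 319 ± 15.6 in run 3, and COL8A1 and COL11A1 kept that order, with 604, 539 and 501 CPM and 132, 117 and 107 CPM. COL16A1 was highest in run 2, with 76.7 ± 15.4, 98.1 ± 15.8 and 70.2 ± 5.56 CPM in runs 1, 2 and 3. COL27A1, chosen after its values were seen, had 2.11 ± 0.282, 4.21 ± 1.14 and 4.87 ± 0.413 CPM.

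COL6A3 and COL15A1 were lowest in run 2. COL6A3 averaged 10.4 ± 7.11 CPM in run 1, 1.85 ± 0.969 in run 2 and 8.14 ± 1.08 in run 3, so that run 1 exceeded run 2 by 2.58 ± 0.29 and run 3 exceeded run 2 by 2.31 ± 0.29 on the log2 scale (adjusted p = 7.92e-05 over the 3 runs). COL15A1 averaged 8.76 ± 5.08, 4.33 ± 0.872 and 8.39 ± 1.58 CPM (adjusted p = 0.0365). Among chains called between runs the direction was thus not shared.

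**Figure D4:**
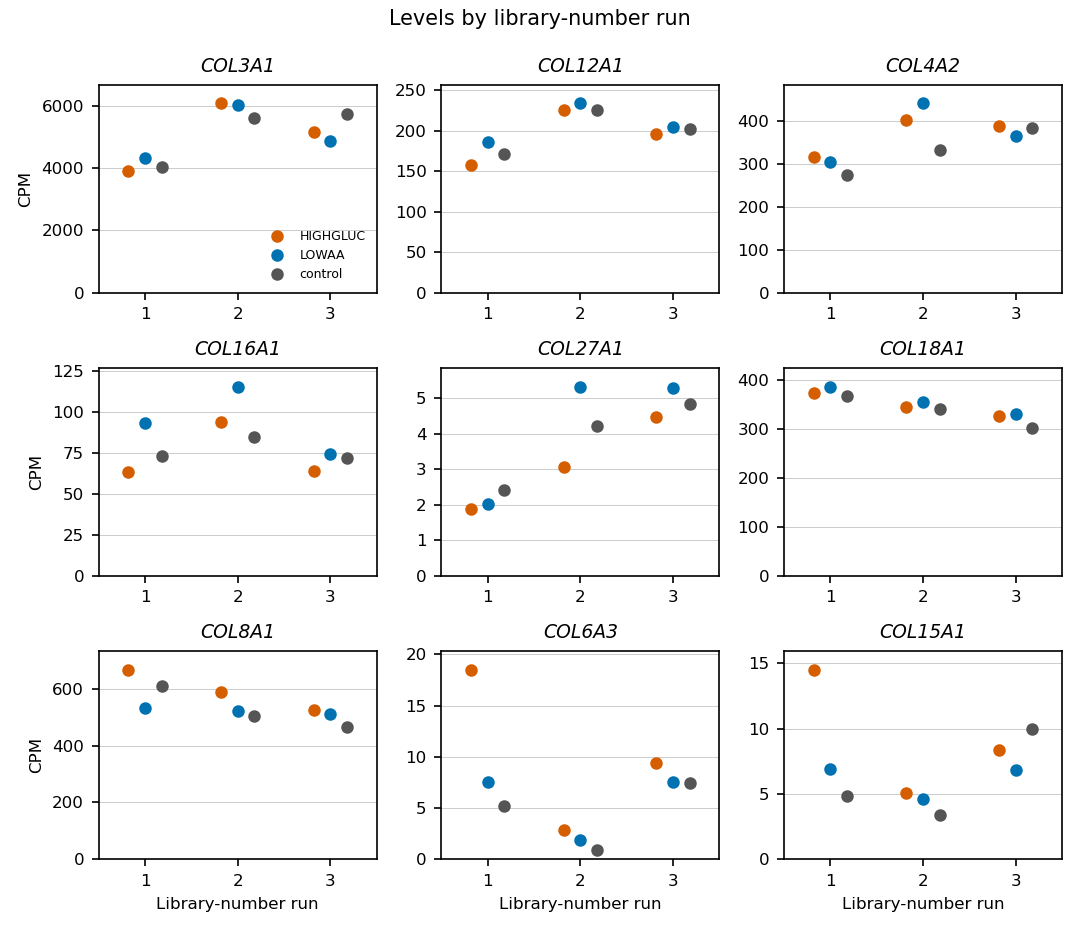
CPM of 9 collagen chains in each library, by library-number run, with HIGHGLUC, LOWAA and control from left to right within a run. COL3A1, COL12A1, COL4A2 and COL27A1 are lowest in run 1, COL18A1 and COL8A1 are highest there, and COL6A3 and COL15A1 are lowest in run 2.

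The sum of squares of log2 CPM over the 9 libraries was divided into parts between groups, between runs and the rest. For the collagen chains the median part between groups was 17.7% and between runs 54.1%, beside 18.5% and 37.0% for all 11771 tested genes with reads in every library. The 22 chains with the larger run part are 91.7%, beside 66.1% of all genes. COL3A1 had 89.9% between runs and 0.260% between groups. The exceptions were COL5A2, with 51.8% between groups and 27.5% between runs, and COL8A2, with 37.1% and 11.5%.

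**Figure D5:**
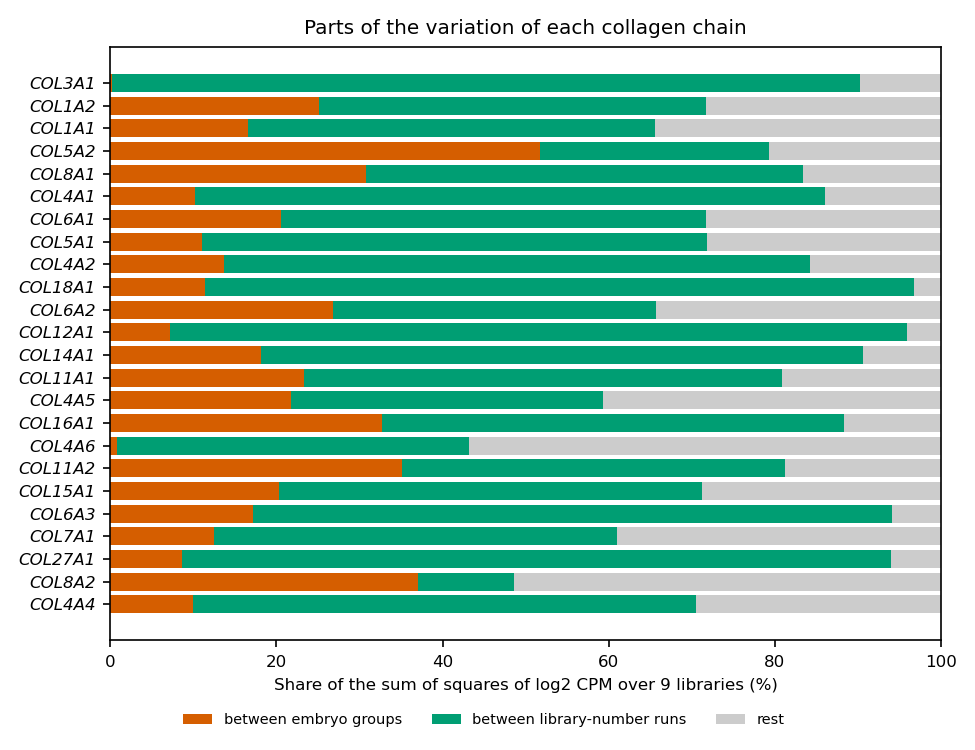
Share of the variation of log2 CPM that lies between embryo groups, between library-number runs and in the rest, in percent, for the 24 tested collagen chains ordered by level. The green run part is the longer one in all chains but COL5A2 and COL8A2.

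Some cell type markers also differed between runs, in more than 1 direction. By edgeR's quasi-likelihood test at an adjusted p of 0.05, 10.2% of all genes differed between runs. Of the stromal markers 5 of 11 did (PDGFRA, PDGFRB, THY1, FAP and S100A4). So did 2 of 7 tested epithelial markers (KRT18 and CDH1) and 1 of 6 tested smooth muscle and pericyte markers (MCAM). In the other lists 1 of 2 tested leukocyte markers and 0 of 2 tested endothelial markers did. The platelet-derived growth factor receptor PDGFRA, a fibroblast marker, had 86.4, 27.4 and 66.5 CPM in HIGHGLUC, 47.1, 23.5 and 52.3 CPM in LOWAA, and 42.9, 25.7 and 66.0 CPM in control libraries. THY1, a surface protein of fibroblasts, had 17.6, 2.93 and 10.1 CPM in HIGHGLUC, 6.35, 2.79 and 4.97 CPM in LOWAA, and 7.62, 2.36 and 6.195 CPM in control libraries. Both were lowest in the run 2 library of every group, as was COL6A3, and both were chosen after their values were seen. The stromal marker FAP averaged 169 CPM in run 1, 144 in run 2 and 124 in run 3, and VIM 525, 571 and 531 CPM. Of the epithelial markers, the keratin KRT18 averaged 2215, 1845 and 1922 CPM and the adhesion protein CDH1 138, 105 and 122 CPM in runs 1, 2 and 3, so both were lowest in run 2 as well. The stromal list summed to 3208 to 3304, 2944 to 3449.6 and 3023 to 3214 CPM in runs 1, 2 and 3. These ranges overlap, and most of the sum is DCN, VIM and LUM, at 2103, 542 and 333 CPM on average. PDGFRA, PDGFRB, THY1, S100A4 and TWIST2 had their lowest mean in run 2. The lowest mean of DCN, LUM, FAP and HOXA11 was in run 3, and that of VIM and TWIST1 in run 1. By group the list summed to 3148 to 3449.6 in HIGHGLUC, 3023 to 3304 in LOWAA and 2944 to 3279 CPM in control libraries. The part of stromal or epithelial cells in the run differences of the collagen chains was not tested.

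Other genes of the collagen pathway were taken from 8 lists of 106 genes, of which 101 were in the table and 89 were tested. By edgeR's quasi-likelihood test none of the 89 passed an adjusted p of 0.05 in any comparison. Before adjustment 1, 1 and 2 of them had p under 0.05 in HIGHGLUC against control, LOWAA against control and HIGHGLUC against LOWAA, beside 2.98%, 4.0% and 3.18% of all genes. Between runs 18 of 89 (20.2%) differed, beside 10.2% of all genes, and the genes named below for a difference between runs were chosen after their values were seen.

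Chains are folded and hydroxylated in the endoplasmic reticulum. In that list 17 genes were tested and the medians of the log2 fold changes were 0.00 for HIGHGLUC against control, 0.05 for LOWAA against control and -0.06 for HIGHGLUC against LOWAA. P4HB, a subunit of prolyl hydroxylase, averaged 878 CPM, the collagen chaperone SERPINH1 739 CPM and the prolyl isomerase PPIB 347 CPM. Their log2 fold changes against control were 0.04, -0.04 and -0.02 for HIGHGLUC and 0.13, 0.02 and 0.08 for LOWAA. P4HA2, P4HA3 and P3H2, all proline hydroxylases, differed between runs.

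Secretion of procollagen uses large carriers, and 9 genes of it were tested. MIA3, which loads procollagen at exit sites, averaged 315 CPM, the transcription factor CREB3L2 153 CPM and the coat protein SEC24D 144 CPM. PREB, which starts the coat, had 46.7 ± 4.97 CPM in HIGHGLUC and 38.5 ± 3.54 CPM in LOWAA libraries (SD, n = 3 each). Its log2 fold change was 0.29 ± 0.13 and did not pass after adjustment. No gene of this list differed between runs.

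Outside the cell the propeptides are cut off and the fibrils cross-linked, with 11 genes tested. The cross-linking oxidases LOXL1 and LOX averaged 347 and 246 CPM and the propeptide protease BMP1 115 CPM. LOX differed between runs, with means of 274, 255 and 209.5 CPM in runs 1, 2 and 3, and so did LOXL3. LOX had log2 fold changes of 0.07 ± 0.14 for HIGHGLUC and 0.11 ± 0.14 for LOWAA against control.

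Partners of the fibril included fibronectin (FN1) with 10578 CPM, the matrix glycoprotein SPARC with 7761 CPM and the fibril-binding proteoglycan DCN with 2103 CPM. FN1 was the only one of the 14 tested that differed between runs, with 9734, 9295 and 12705 CPM in runs 1, 2 and 3. POSTN, a matrix protein that binds collagen, averaged 301 ± 40.7 CPM in HIGHGLUC and 395 ± 66.0 CPM in control libraries, a log2 fold change of -0.39 ± 0.15 that did not pass after adjustment.

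Basement membrane partners had 13 tested genes, and those that differed between runs included HSPG2, NID1, NID2, LAMA3 and LAMA4. The proteoglycan HSPG2 averaged 1764 CPM, the laminin chain LAMB1 1419.5 CPM and the proteoglycan AGRN 578 CPM. HSPG2 was lowest in run 1, with 1474, 1911 and 1907 CPM in runs 1, 2 and 3, the run in which COL4A1 and COL4A2 were also lowest. NID2, which ties laminin to type IV collagen, had 661, 464 and 513 CPM and was lowest in run 2.

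Of the collagen receptors 7 were tested, led by the integrin ITGB1 with 1010.0 CPM, the discoidin receptor DDR1 with 384 CPM and the uptake receptor MRC2 with 121 CPM, and ITGA1 was the one that differed between runs. Among 4 tested genes of degradation MMP2, CTSK and FAP differed between runs, with 1000.4, 803 and 849 CPM for the gelatinase MMP2 and 397, 284 and 292 CPM for the protease CTSK in runs 1, 2 and 3. MMP14 averaged 179 CPM. FAP is also in the stromal list.

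TGF-beta drives collagen transcription in fibroblasts, and 14 genes of its pathway were tested. CTGF, a target of the pathway, averaged 1273 ± 161 CPM in LOWAA and 997 ± 131 CPM in control libraries (SD, n = 3 each), with a log2 fold change of 0.35 ± 0.12. The receptor TGFBR2 averaged 362 ± 20.4 CPM in HIGHGLUC and 308 ± 30.6 CPM in LOWAA libraries (0.24 ± 0.10). Neither passed after adjustment, and SMAD4, the shared signal carrier, averaged 117 CPM. TGFB2 and SMAD3 differed between runs.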

How the data were processed

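RNA of 9 BEEC libraries was sequenced as single reads of 50 bp with a kit that does not mark strand, per the labels' protocols, whereas the file headers carry the word paired. Cells were at passage 2 by their sample entry and at passage 1 by the protocol text. Bowtie2, HTSeq 0.5.4p2 and UMD3.1 are named in the submitters' processing notes, without roles. The authors deposited 1 table, whose total exon, unique exon, exon-exon and intron reads are raw counts per gene, per the file headers. The fold change deposited by the authors is a signed score, and their p-value columns hold Baggerley's test and its FDR correction. Exon length, exon number and positions are other deposited columns that describe the annotation. The columns of library values not used number 156.

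CPM were computed from total exon reads without further scaling. Genes kept by filterByExpr (minimum count 10) were tested with edgeR 4.0.16 in R 4.3.3 (TMM, robust quasi-likelihood test, all 9 libraries, group as the only term, Benjamini-Hochberg adjustment over 11839 genes, threshold 0.05). TMM factors ranged from 0.98 to 1.025. SE is the size of the log2 fold change divided by the root of F. The fit was tested on simulated counts. Alternatives were unique reads, the library-number run as a term, RLE factors, no filter, DESeq2 1.42.0, limma-voom (limma 3.58.1) and leaving out each library. Values per library are given for the 12 chains with the highest level and those with an unadjusted p under 0.05 with or without the run as a term. From each pathway list the 3 most abundant genes and up to 4 with the smallest p under 0.05 are named. The members and lists were chosen with earlier results of these data known. No library duplicated another of its group (lowest chi-square divided by its degrees of freedom, 8.67). Some members overlap unread small RNA genes, COL10A1 overlaps NT5DC1, and COL26A1 overlaps a gene without reads.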

Additional observations from a re-analysis of the deposited data

How the results depend on the processing

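None of the 24 chains was called in any comparison under unique exon reads, the run as a term, both, RLE factors, no filter, DESeq2, limma-voom or any of the 9 fits with 1 library left out. Total and unique exon reads of a chain were equal, so unique reads changed only the library totals and the other genes of the fit. The counts of called genes over all genes did change. With the library-number run as a replicate block 3, 19 and 17 genes passed in HIGHGLUC against control, LOWAA against control and HIGHGLUC against LOWAA. With unique reads and the block these counts were 8, 57 and 36. DESeq2 called 4 genes in LOWAA against control and 3 in HIGHGLUC against LOWAA, and leaving out 1 library gave 0 to 1 in LOWAA against control. The cause was not tested. The labels give no meaning to the library numbers. Libraries of a run correlated above 0.1 after removal of group means in 7 of 9 pairs (0.022 to 0.606), and so did 6 of 18 pairs from different runs (-0.70 to 0.42). Since not every pair of a run exceeded 0.1 on total exon reads, the main fit did not pair the libraries by number. On unique reads it was 9 of 9 pairs of a run (0.198 to 0.452) and 0 of 18 others (-0.367 to 0.032), so there the runs met the threshold. With the run as a term, edgeR's coefficient of variation between libraries fell from 0.171 to 0.107. The SEs and intervals of the main fit therefore include the spread between runs.

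With the run block an unadjusted p under 0.05 was reached by 3 chains (12.5%, all genes 6.66%) in HIGHGLUC against control, 2 (8.33%, 8.27%) in LOWAA against control and 5 (20.8%, 8.08%) in HIGHGLUC against LOWAA, and by edgeR none passed after adjustment. COL6A3 had a log2 fold change of 1.13 ± 0.27 in HIGHGLUC against control (adjusted p = 0.258), and COL16A1 of 0.29 ± 0.09 in LOWAA against control (adjusted p = 0.283) and -0.36 ± 0.09 in HIGHGLUC against LOWAA (adjusted p = 0.149). Leaving out control replicate 13 with the block, added after seeing the data, put COL6A3 at 1.69 (adjusted p = 0.0224); the other 8 such fits gave 0.74 to 1.59 and did not pass. Of 1275 fold changes of named chains under alternatives 75 changed sign, none of them called.

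With 1 library left out the median over the chains took both signs in each comparison, from -0.026 to 0.069 in HIGHGLUC against control, -0.0095 to 0.107 in LOWAA against control and -0.10 to 0.034 in HIGHGLUC against LOWAA. With 1 library left out the collagen share differed by -0.106 to 0.033 percentage points in HIGHGLUC minus control. It differed by -0.0861 to 0.0520 in LOWAA minus control and by -0.0732 to 0.0530 in HIGHGLUC minus LOWAA. Between runs 5 to 12 chains and 790 to 1313 genes passed with 1 library left out. Ratios between chains moved by less than their SD. At this depth a chain without reads in a given library could lie there at up to 0.215 to 1.04 CPM, depending on the library. For chains without reads in any library the limit over the pooled reads is lower and was not computed.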

Other observations

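COL26A1 stood apart in where its reads lay. It had 4 exon reads in all libraries but 612 intron reads, 99.4% of its reads. The intron reads came to 6.201, 7.19 and 9.67 per 1000000 exon reads in HIGHGLUC, 8.46, 8.00 and 8.43 in LOWAA, and 7.62, 6.51 and 9.002 in control libraries, so every library had them at a similar level. The other 12 chains with at most 4 exon reads had at most 8 intron reads each.

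Exon structure differed within the tested chains. Reads across exon junctions made up 5.55% of the exon reads of COL8A1, which has 4 exons in the table, and 4.50% of those of COL8A2, which has 2. The other 22 tested chains had 31 to 118 exons, and 39.2% to 84.4% of their exon reads crossed a junction.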
